A study of Mus musculus with 78 samples.

Results

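The change in translational efficiency of mRNAs in mouse CD8+ T cells deprived of branched-chain amino acids (BCAA: leucine, isoleucine and valine) was measured over all genes, as 12 of the 60 libraries in the deposited table and 13072 of its 14695 genes. The members were defined by sample labels: total RNA and polysome RNA of cells in BCAA-free medium (NoBCAA) and in complete medium (Control), 3 libraries for each. They were chosen with earlier results of these data known. The primary cells, taken from C57BL/6J spleen and lymph nodes, were on day 3 of activation and spent 3 h in either medium. All groups share that strain, that activation and lysis with cycloheximide, which holds ribosomes on the mRNA. Part of each lysate was kept as input for total RNA, and the rest was spun through a 15 to 45% sucrose gradient cut into 15 fractions. RNA of fractions 9 to 13, where mRNAs carry several ribosomes, was pooled as polysome RNA, so a gene's value says nothing of how its mRNA was spread among those fractions. Translational efficiency (TE) is here the ratio of a gene's polysome RNA to its total RNA, and its change is the log2 of that ratio in NoBCAA minus the log2 in Control. Cells without arginine (NoArginine), glutamine (NoGlutamine) or methionine (NoMethionine), handled alike with 6 libraries each, served to test where the response to BCAA removal differs. Their libraries, and 6 of cells without glucose (NoGlucose), were also part of the joint fit. They thus entered the gene filter, the scaling and the spread behind each SE and p-value. TE changes without glucose are not described here.

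Cells read the supply of amino acids through a pair of pathways. Uncharged tRNA activates the kinase GCN2, which phosphorylates the initiation factor eIF2 and lowers initiation on most mRNAs, while some mRNAs with upstream open reading frames (uORF), such as that of the transcription factor ATF4, are then translated better; ATF4 in turn drives genes of amino acid synthesis and uptake, the integrated stress response (ISR). Leucine is also sensed through the Sestrin proteins by the kinase mTORC1, which sustains translation of mRNAs that start with a 5′ terminal oligopyrimidine (TOP) tract: those of ribosomal proteins, elongation factors and a few others. In activated T cells, which grow and divide fast, leucine uptake through the SLC7A5 and SLC3A2 transporter is known to feed mTORC1.

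Library totals ran from 22815417 to 47631430 counts over the 12 libraries, and entries of ribosomal RNA, 7SK RNA and mitochondrial genes took 3.03 to 4.25% of the counts in total RNA and 0.267 to 0.330% in polysome RNA. All 9 CD8 T cell markers (such as Cd3e, Cd8a and Trac) were measured, with a summed level of 1974 to 2218 CPM (counts scaled to a common library size) in total RNA of Control and 1901 to 1995 in NoBCAA. Of 9 B cell markers 4 had a row in the table, summing to 26.0 to 28.2 CPM in Control and 22.1 to 22.4 in NoBCAA, and Ighd was at 0 in total RNA of NoBCAA. The 2 CD4 T cell markers with a row of 4, Foxp3 and Zbtb7b, summed to 10.6 to 12.6 CPM in Control and 18.3 to 21.7 in NoBCAA, of which Zbtb7b made up the tested part. Of 10 myeloid markers 1 had a row, at 0.0389 to 0.219 CPM in total RNA, and none of the 5 NK cell and 6 erythroid markers did. In bulk RNA, fewer cells of a type and less RNA per cell cannot be told apart, and the part of these markers in the results below was not tested.

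Removal of BCAA changed the TE of 3486 genes: it rose for 1042 (7.97% of the genes tested) and fell for 2444 (18.7%), at an adjusted p of 0.05 or less (edgeR's quasi-likelihood test with Benjamini-Hochberg adjustment over all genes, as for every adjusted p given here). The median log2 change of TE over all genes was -0.12, so that a gene with no change on this scale lay above the typical gene. Scaling sets where zero lies. Of the called genes 29.9% were higher, and this share was 42.9% with relative log expression (RLE) size factors in place of TMM, 42.5% with DESeq2 and 45.4% when only the 12 libraries were fitted, and the all-gene median was -0.06 in each of these 3 fits. Without NoBCAA replicate 1 the genes that rose numbered 674, and without Control replicate 2 the genes that fell numbered 1592. Large changes were mostly decreases: TE fell by at least 1 on the log2 scale for 105 called genes and rose by as much for 14.

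The levels behind the ratio moved too. Total RNA rose for 2052 genes (15.7%) and fell for 1681 (12.9%), and polysome RNA rose for 2853 (21.8%) and fell for 4561 (34.9%). When only polysome RNA of these groups was fitted, 51.1% of the called genes were higher, against 38.5% here. Of the 2444 genes whose TE fell 1720 had no called change in total RNA, and of the 1042 whose TE rose 639 had none. Over all 13072 genes tested 9339 had none, and the share among genes whose TE fell was near that. Of the 2052 genes whose total RNA rose, TE fell for 392 and rose for 281. Among all genes TE fell for 18.7% and rose for 7.97%, so the share that fell was near that of all genes. Both values use the same total RNA libraries, so these counts are not independent of each other. The plot of total against polysome changes sets the main groups apart: stress genes run along the diagonal of equal change, and genes of oxidative phosphorylation lie below it at unchanged total RNA.

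**Figure D1:**
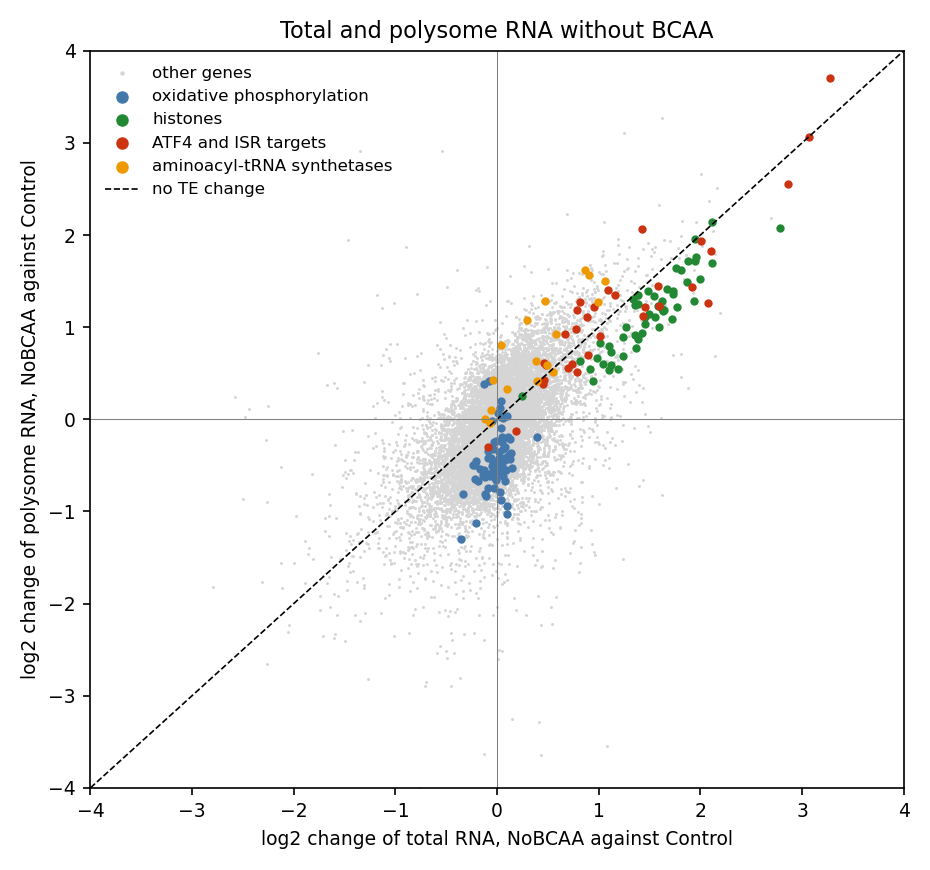
Log2 change of total RNA (horizontal axis) and of polysome RNA (vertical axis), NoBCAA against Control, with 1 point per gene and 4 gene lists in colour; on the dashed line TE does not change. ATF4 targets and histones lie far to the right near or just under the line, and oxidative phosphorylation genes lie below it. The 3 genes beyond 4 in size on either axis are not drawn.

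The genes of BCAA handling themselves were described first. Bckdk, the kinase that shuts off the branched-chain ketoacid dehydrogenase and so holds back BCAA breakdown, was among the 15 genes with the lowest TE change under the naming rule (called, with a symbol, a mean of at least 5 CPM and ratios that do not overlap between the media). Its total RNA was 62.6, 69.6 and 64.8 CPM in Control and 50.7, 55.8 and 51.9 CPM in NoBCAA. Its polysome RNA was 39.7, 47.6 and 46.0 CPM in Control and 15.4, 14.8 and 15.7 CPM in NoBCAA. All 3 NoBCAA lysates lay below all 3 of Control in both fractions, by far more in polysome RNA. The log2 change was -0.31 (SE 0.08, n = 3) in total RNA, -1.54 (SE 0.09) in polysome RNA and -1.22 (SE 0.12) in TE (adjusted p = 3.86e-08). This TE change differed from that without arginine (-0.48) by -0.74 (SE 0.12, adjusted p = 0.000588). It did not differ beyond error from those without glutamine (-1.33, adjusted p of the difference 0.947) and methionine (-0.97, adjusted p = 0.158).

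Of 31 tested genes of BCAA transport and catabolism, TE rose for 4 and fell for 5, with a median of -0.06 against -0.12 over all genes. The share that fell was near that of all genes (18.7%), of which 7.97% rose. The number that fell was 2 with RLE size factors, 3 when only the 12 libraries were fitted, 1 without Control replicate 2, 2 without NoBCAA replicate 1, and 3 without NoBCAA replicate 2 or Control replicate 3. Slc3a2, the heavy chain of the leucine transporter, rose: the log2 ratio of polysome to total RNA was -0.06, -0.21 and 0.04 in Control and 0.40, 0.64 and 0.63 in NoBCAA, and the TE change was 0.64 (SE 0.16, adjusted p = 0.00309). Its total RNA rose as well, by 1.43 (SE 0.11, adjusted p = 3.41e-12) on the log2 scale. Slc7a5, the light chain of the same transporter, rose in total RNA by 0.74 (SE 0.09), while its TE change was -0.14 (SE 0.13, adjusted p = 0.482). Bcat1, the cytosolic aminotransferase that takes the amino group off BCAA, went from 147, 130 and 131 CPM of total RNA to 248, 237 and 240 CPM, with groups that do not overlap. Its TE change of 0.20 (SE 0.09) was not called here (adjusted p = 0.10) but was called with RLE size factors (0.26, adjusted p = 0.0388). Mmut, which makes succinyl-CoA from the products of valine and isoleucine, rose in TE by 0.63 (SE 0.12), and Ppm1k, the phosphatase that opposes BCKDK, by 0.55 (SE 0.18, adjusted p = 0.0200). The call for Ppm1k was lost without any 1 of 3 lysates, namely NoBCAA replicate 1, NoBCAA replicate 2 or Control replicate 3, with adjusted p up to 0.122. Dbt, the core of the dehydrogenase that BCKDK restrains, rose in TE by 0.50, and Echs1, Hsd17b10, Hibadh and Auh, enzymes further down the pathway, fell by 0.38, 0.32, 0.30 and 0.29; these 5 were named after their values were seen. The calls for the 4 that fell were each lost without 1 or more lysates, Control replicate 2 among them for all 4, with adjusted p up to 0.0864, 0.0720, 0.153 and 0.165 in the order given. Those of Hsd17b10, Hibadh and Auh were also lost with RLE size factors.

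Stress genes rose mainly in amount. Of 31 tested ATF4 and ISR targets, 29 rose in total RNA and 29 in polysome RNA, with medians of 0.95 and 1.18 on the log2 scale, while TE rose for 3 and fell for 5 (median -0.08). For comparison, 15.7% of all genes rose in total RNA and 21.8% in polysome RNA, while TE rose for 7.97% and fell for 18.7%. The TE split turned with the scaling: with RLE size factors 8 rose and 1 fell. With a lysate left out 3 rose and 2 to 5 fell (2 without NoBCAA replicate 1 or Control replicate 2, 3 without NoBCAA replicate 2 or Control replicate 3), so no direction is given for the list. Ddit3, the transcription factor CHOP, had 18.3, 18.6 and 17.7 CPM of total RNA in Control and 172, 188 and 166 CPM in NoBCAA. Its polysome RNA went from 14.8, 18.1 and 17.8 CPM to 210, 232 and 218 CPM, and its TE rose by 0.43 (SE 0.11, adjusted p = 0.00438). Sesn2, the leucine-binding Sestrin, rose by 2.00 (SE 0.09) in total RNA, with ratios of 0.20, 0.14 and 0.46 in Control and 0.05, 0.22 and 0.32 in NoBCAA that overlapped (TE change -0.07, SE 0.12, adjusted p = 0.698). Cebpb, a partner of ATF4 and CHOP, rose in total RNA by 2.07 (SE 0.14) and fell in TE by 0.81 (SE 0.20, adjusted p = 0.00247), so its polysome RNA rose by less than its total RNA.

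For mRNAs reported to escape eIF2 phosphorylation through uORFs, TE rose for 4 of 8 tested and fell for none, with a median of 0.31. Among all genes tested it rose for 7.97% and fell for 18.7%. Atf4 itself had 640, 657 and 676 CPM of total RNA in Control and 1014, 1012 and 980 CPM in NoBCAA. Its polysome RNA was 408, 462 and 431 CPM in Control and 874, 899 and 897 CPM in NoBCAA. In both fractions every NoBCAA library was above every Control library. TE rose by 0.43 (SE 0.09, adjusted p = 0.000895). Eprs1, the synthetase that charges glutamate and proline tRNAs, rose in TE by 0.81 (SE 0.14, adjusted p = 5.43e-05), with log2 ratios of -1.19, -0.94 and -1.16 in Control and -0.16, -0.28 and -0.44 in NoBCAA. Ppp1r15a, the GADD34 subunit that directs phosphatase back to eIF2, rose by 0.29 (SE 0.09, adjusted p = 0.0214). That call was lost when 1 of 4 lysates was left out (NoBCAA replicate 2 or 3, Control replicate 2 or 3), with adjusted p up to 0.105. Atf5, with a TE change of 0.32 (SE 0.16, adjusted p = 0.132), was not called. Compared with methionine removal, the TE change without BCAA was higher for Atf4 by 0.38 (SE 0.09, adjusted p = 0.00548) and for Ddit3 by 0.49 (SE 0.11, adjusted p = 0.00155), and lower for Eprs1 (difference -0.46, SE 0.14, adjusted p = 0.0178). The Eprs1 difference was lost without NoBCAA replicate 3, NoMethionine replicate 2 or NoMethionine replicate 3 (adjusted p up to 0.110). For Eif2ak4, which encodes GCN2, the TE change was 0.08 (SE 0.12, adjusted p = 0.651) and total RNA fell by 0.52 (SE 0.08, adjusted p = 5.33e-06).

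Aminoacyl-tRNA synthetases load amino acids onto tRNA. Of 17 cytosolic synthetases for amino acids other than BCAA, TE rose for 10 and fell for none (median 0.28), where 7.97% of all genes rose and 18.7% fell. Over the alternatives the number that rose was 7 to 12. Eprs1 was counted both here and among the uORF mRNAs. Mars1 (methionine) rose by 0.78 (SE 0.12), Rars1 (arginine) by 0.78 (SE 0.11) and Tars1 (threonine) by 0.76 (SE 0.13). None of the 5 tested synthetases for leucine, isoleucine and valine was called, and 1 was with DESeq2 or the replicate block. For Lars1, the cytosolic leucine enzyme, the log2 ratios were -0.79, -0.68 and -0.67 in Control and -0.11, -0.19 and -0.36 in NoBCAA, which do not overlap. Its levels varied together in both fractions, from 118 to 202 CPM of total RNA and from 73.3 to 117 CPM of polysome RNA over the Control lysates. The TE change of 0.51 (SE 0.25) had an adjusted p of 0.134, and of 0.000861 with the lysate as a replicate block, a fit that compares polysome with total RNA within each lysate. Vars1, the valine enzyme, had a TE change of 0.26 (SE 0.14, adjusted p = 0.168). Among 12 transporters of other amino acids TE rose for 3 and fell for none. These were Slc1a4 at 0.66 (SE 0.15), Slc1a5 at 0.53 (SE 0.17), whose call was lost without NoBCAA replicate 3 or Control replicate 2, and Slc38a2 at 0.46 (SE 0.12).

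**Figure D2:**
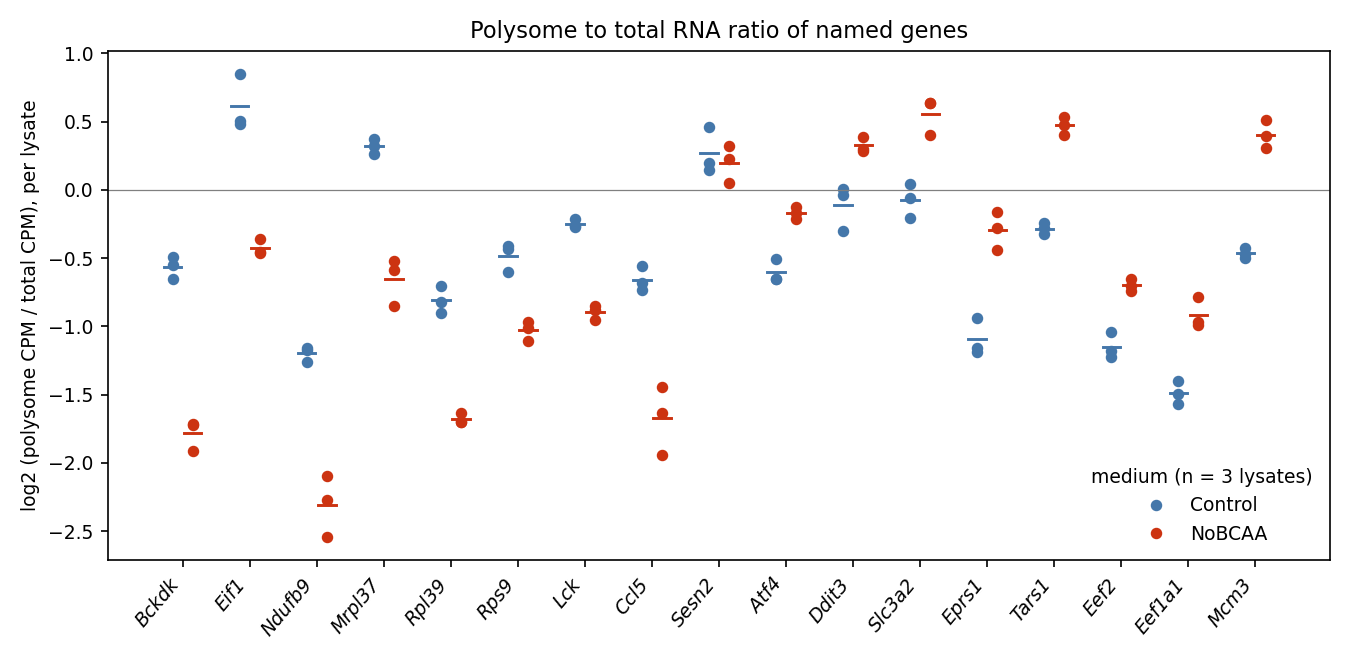
Log2 of polysome CPM over total CPM (vertical axis) for 17 genes, with 1 point per lysate and a bar at the mean of the 3 lysates of each medium. For Bckdk, Eif1, the mitochondrial, ribosomal and T cell genes shown every NoBCAA point lies below the Control points, for Atf4, Ddit3, the synthetases and the elongation factors above them, and for Sesn2 the points overlap.

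TOP mRNAs did not move as one. Of 33 tested proteins of the small ribosomal subunit, TE fell for 14 and rose for none, and of 49 of the large subunit it fell for 15 and rose for 1, Rpl3, named after its value was seen. The medians were -0.29 and -0.27, against -0.12 over all genes, and 63 of the 82 had NoBCAA ratios all below the Control ratios, against 30.0% of all genes. By the test TE fell for 18.7% of all genes and rose for 7.97%. With RLE size factors 7 small-subunit proteins fell, and leaving out Control replicate 2, Control replicate 3 or NoBCAA replicate 1 left 7, 8 and 9. For the large subunit it was 12 to 15 with a lysate left out and 23 with the replicate block described above. Total RNA fell for 1 of the 82 and rose for none, where it fell for 12.9% of all genes and rose for 15.7%. Among 19 other TOP mRNAs, TE rose for 6 and fell for 5. The number that fell was 3 with RLE size factors, with DESeq2 and without any 1 lysate but Control replicate 1. The letters around the annotated starts are shown for members of both kinds that had a pyrimidine run there. Each window holds 28 bases, 8 before and 20 from the start annotated by RefSeq (GRCm38.p6). Capitals mark a C followed by at least 4 pyrimidines that begins within 5 bases of that start. All runs shown but that of Rpl38 begin before the annotated start, so the capitals are not shown to be TOP tracts of the mRNAs. No such run was found for Eef2 and Eif4b, whose TE rose, or for Eef1b2, Btf3 and Tpt1, whose TE fell. Eef1a1, Eif3f and Vim rose in TE, and Rps9, Rpl38, Rpl15 and Rack1 fell. The calls for Rpl38 and Rack1 were lost when single lysates were left out (adjusted p up to 0.0630 without Control replicate 2 for Rpl38 and 0.159 without it for Rack1), and that of Rack1 also with RLE size factors (adjusted p = 0.127).
Eef1a1 (chr9:78481705-78481732, minus strand): ccgCCCTCTTCCCgagggtgggggagaa
Eif3f (chr7:108934407-108934434, plus strand): taggCTCTCTCTCTTTCTCggcaagatg
Vim (chr2:13574303-13574330, plus strand): gtccagtCCTCTgccactcttgctccgg
Rps9 (chr7:3704033-3704060, plus strand): tgtCTCTCTTTgtctcgggcctgagttc
Rpl38 (chr11:114668572-114668599, plus strand): gcctcgttCTTTCCCCgttctcttcggt
Rpl15 (chr14:18270967-18270994, minus strand): aaagCCTTCTTCCTTTCCTCTggcggca
Rack1 (chr11:48800352-48800379, plus strand): cgctCTTTCTTTTTCTCCacagggtcgt
Every annotated start of a gene was searched, and a gene counted if any of them had such a run. It was present in 30 of the 61 ribosomal proteins and 8 of the 14 other TOP genes that matched the RefSeq table by symbol. Of the 8984 tested genes that matched, 24.2% had one. Genes of a chromosome that the search left out are not among those matched. The share was 22.3% of matched genes whose TE rose and 25.2% of those whose TE fell. The starts used in these cells were not examined.

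Eef1a1, which delivers aminoacyl-tRNA to the ribosome, had 17780, 18205 and 18732 CPM of total RNA in Control and 17810, 17980 and 18646 CPM in NoBCAA, ranges that overlap. Its polysome RNA was 6749, 6457 and 6301 CPM in Control and 10327, 9200 and 9362 CPM in NoBCAA, all higher. TE rose by 0.57 (SE 0.08, adjusted p = 9.63e-06). Eef2, the factor that moves the ribosome along the mRNA, rose by 0.45 (SE 0.10, adjusted p = 0.000878), with log2 ratios of -1.22, -1.18 and -1.04 in Control and -0.74, -0.70 and -0.65 in NoBCAA. Eif4b, a helper of the helicase eIF4A, rose by 0.49 (SE 0.11). Eef1g, Vim and Eif3f, named after their values were seen as the other members that rose, changed by 0.41, 0.34 and 0.27. The Vim call was lost without NoBCAA replicate 2 or 3 or Control replicate 2 (adjusted p up to 0.0780), and that of Eif3f without NoBCAA replicate 3 or Control replicate 2 or 3 (adjusted p up to 0.136). Not every elongation factor rose: Eef1b2, a subunit of the exchange factor of eEF1A, fell by 0.43 (adjusted p = 0.00475). On the other side, Btf3, which binds nascent chains, fell by 0.49 (SE 0.10, adjusted p = 0.000514). Among ribosomal proteins Rpl39 went from ratios of -0.82, -0.70 and -0.90 to -1.70, -1.63 and -1.70 (TE change -0.87, SE 0.19). Rps9 went from -0.60, -0.41 and -0.43 to -1.02, -1.11 and -0.97 (TE change -0.55, SE 0.11). Pabpc1, the cytoplasmic poly(A)-binding protein, was not called (0.14, SE 0.24, adjusted p = 0.714). Ribosomal protein genes and Eef1a1 have many near-identical pseudogenes, and how the counting divided reads among such copies is not given in the sources used here.

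The same mRNAs were then set beside those of the other amino acid deprivations, whose TE changes all use the same Control libraries. Median TE changes of the 82 ribosomal proteins were -0.28 without BCAA, -0.61 without arginine, -0.46 without glutamine and -0.62 without methionine. In the test of the difference, TE without BCAA was higher than without arginine for 18 of the 82 and lower for none, where 0.505% of all genes were higher and 1.62% lower. These were 7 small-subunit and 11 large-subunit proteins. With any 1 of the 6 lysates left out, 2 to 8 small-subunit proteins and 3 to 12 large-subunit proteins were higher than without arginine. Among the 19 other TOP mRNAs 9 were higher than without arginine, and 3 to 7 with a lysate left out. For Eef1a1 the difference was 0.73 (SE 0.08, adjusted p = 4.04e-06), since TE without arginine changed by -0.15. The differences were 0.41 (SE 0.10, adjusted p = 0.0190) for Eef2 and 0.44 (SE 0.11, adjusted p = 0.0239) for Eif4b. Both were lost when single lysates were left out, with adjusted p up to 0.112 for Eef2 (without NoArginine replicate 2) and 0.135 for Eif4b (without NoBCAA replicate 1). Eef1g differed by 0.38 (adjusted p = 0.00384), Vim by 0.47 (adjusted p = 0.0126) and Tpt1, whose TE change without BCAA was -0.36, by 0.54 (adjusted p = 0.0208). The Vim difference was lost without NoBCAA replicate 2 or 3 or NoArginine replicate 2 (adjusted p up to 0.0675), and that of Tpt1 without any 1 of the 6 lysates but NoArginine replicate 3 (adjusted p up to 0.126). The fall of Tpt1 itself (adjusted p = 0.0399) was lost without any 1 lysate (adjusted p up to 0.147) and with RLE size factors (adjusted p = 0.109). Tpt1 was named after its values were seen, as were Rps6 and Rps23 in the next comparisons.

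Against methionine removal ribosomal proteins were again mostly higher, while several other TOP mRNAs were lower. TE without BCAA was higher than without methionine for 32 of the 82 ribosomal proteins and lower for 1, Rpl3, where 9.74% of all genes were higher and 4.89% lower. The Rpl3 difference was lost without any 1 of the 6 lysates but NoMethionine replicate 1 (adjusted p up to 0.0816). It was lower for 6 and higher for 1 of the 19 other TOP mRNAs. Eef1a1 differed by -0.43 (SE 0.08, adjusted p = 0.000569), Eef2 by -0.49 (SE 0.10), Eef1g by -0.40 and Vim by -0.53. Against glutamine removal, where 0.405% of all genes were higher and 0.0306% lower, 2 of the 82 ribosomal proteins, Rps6 and Rps23, and 1 other TOP mRNA, Eef1a1, were higher. The Rps6 difference was lost with RLE size factors (adjusted p = 0.165) and without any 1 of the 6 lysates, and that of Rps23 without NoGlutamine replicate 2 (adjusted p = 0.0641). The Eef1a1 difference of 0.35 (SE 0.08, adjusted p = 0.0482) was lost with RLE size factors (adjusted p = 0.230), with no filter on low counts (adjusted p = 0.0627) and without any 1 of the 6 lysates compared.

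**Figure D3:**
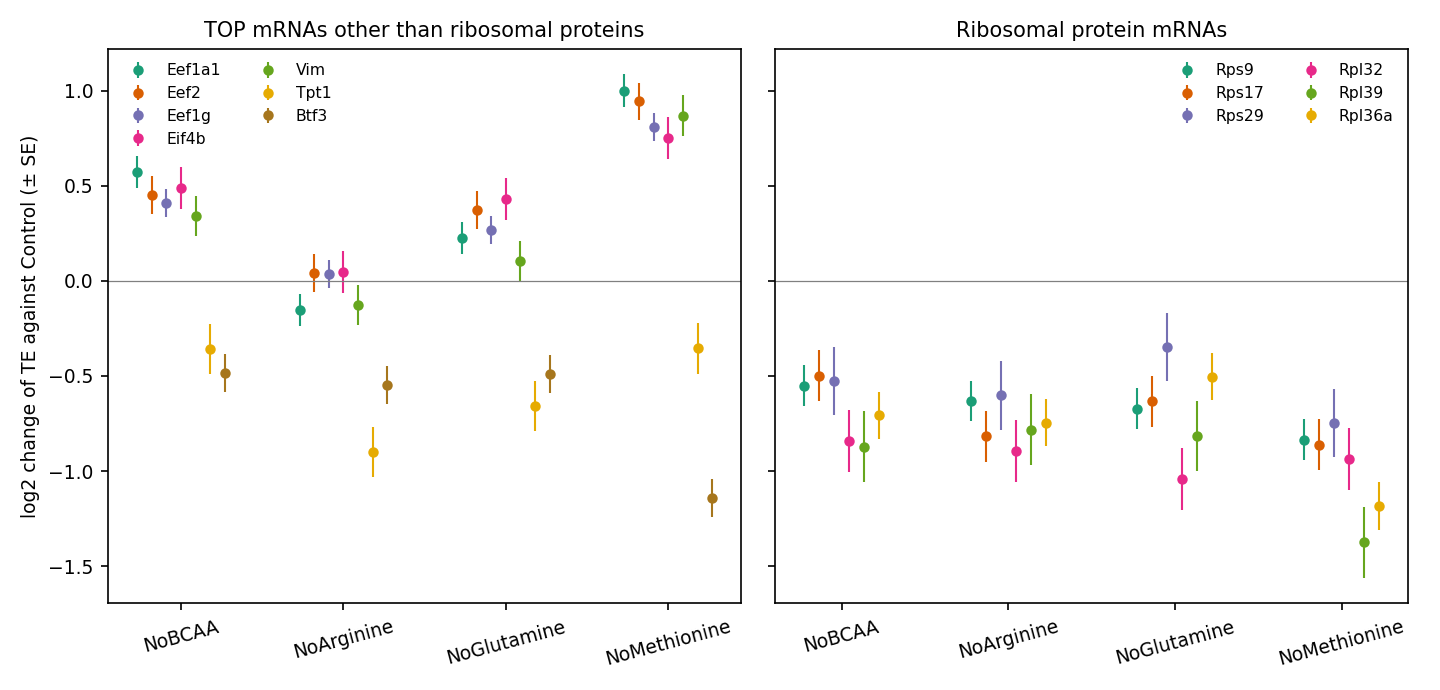
Log2 change of TE against Control (vertical axis, points with ± SE of the joint fit, 3 lysates a group) for 7 TOP mRNAs that are not ribosomal proteins (left) and 6 ribosomal protein mRNAs (right) in 4 deprivations that share the Control libraries. Without BCAA Eef1a1, Eef2 and Eef1g lie above 0 and the 6 ribosomal proteins below it, and without arginine Eef1a1 lies at -0.15.

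Nuclear genes of oxidative phosphorylation and of the mitochondrial ribosome were mostly lower in TE. Of 74 tested genes of oxidative phosphorylation TE fell for 49 and rose for 2 (median -0.46). Of 76 mitochondrial ribosomal proteins it fell for 50 and rose for 2 (median -0.45). Among all genes TE fell for 18.7% and rose for 7.97%. Total RNA of the first list fell for 4 and rose for none, where it fell for 12.9% of all genes and rose for 15.7%. Ndufb9, a subunit of complex I, had log2 ratios of -1.26, -1.17 and -1.16 in Control and -2.27, -2.55 and -2.10 in NoBCAA, a TE change of -1.12 (SE 0.18, adjusted p = 2.44e-05). Mrpl37, of the large mitochondrial ribosomal subunit, went from 0.27, 0.32 and 0.37 to -0.85, -0.52 and -0.59 (-0.97, SE 0.12, adjusted p = 3.41e-07). Counts that fell ranged from 30 to 57 for oxidative phosphorylation over the alternatives and from 41 to 53 for mitochondrial ribosomal proteins. The count of the first list was 32 without Control replicate 2, 30 without NoBCAA replicate 1 and 34 with RLE size factors. Compared with methionine removal, TE without BCAA was higher for 44 and 36 members of these lists and lower for 1 and 0. Of all genes 9.74% were higher and 4.89% lower in that test. Compared with arginine removal, 3 members of each list were lower and none higher, where 1.62% of all genes were lower and 0.505% higher. Compared with glutamine removal, 1 and 2 were higher and 0 and 1 lower, where 0.405% of all genes were higher and 0.0306% lower.

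Translation factors and genes of ribosome production were examined next. Eif1, the factor that guards start codon choice, had 161, 183 and 186 CPM of total RNA in Control and 282, 281 and 278 CPM in NoBCAA. Its polysome RNA fell from 291, 259 and 260 CPM to 220, 205 and 202 CPM, so the fractions moved in opposite directions. TE fell by 1.04 (SE 0.11, adjusted p = 3.86e-08), less than without methionine (difference 0.58, SE 0.11, adjusted p = 0.000245). Of 39 initiation factors TE rose for 7, Eif3a among them (0.63, SE 0.22, adjusted p = 0.0360), and fell for 7, Eif1ax among them (-0.74, SE 0.12). The Eif3a call was lost without any 1 of 5 lysates (all but Control replicate 1), with adjusted p up to 0.116, and with no filter on low counts. Over the list, the share that fell was near that of all genes (18.7%). The number that rose was 3 without NoBCAA replicate 1, 4 without NoBCAA replicate 3 or Control replicate 2, 2 without Control replicate 3 and 11 with the replicate block. Those that fell were 3 without Control replicate 2 and 4 with RLE size factors. Of 50 ribosome biogenesis genes TE rose for 14 and fell for 1 (median 0.20), where 7.97% of all genes rose and 18.7% fell. The number that rose was 9 without NoBCAA replicate 1 and 22 with the replicate block. Nop56, of the box C/D small nucleolar particle, rose by 0.67 (SE 0.11, adjusted p = 2.61e-05) and Polr1b, of RNA polymerase I, by 0.64 (SE 0.13). In the mTORC1 list TE fell for 6 of 39 and rose for 1, a share that fell near that of all genes (18.7%). Rheb, the small GTPase that activates mTORC1, fell in TE by 0.48 (SE 0.12) while its total RNA rose by 0.82 (SE 0.08). Castor1, an arginine sensor, fell in TE by 0.40 (SE 0.12), a call lost without Control replicate 3 (adjusted p = 0.0756).

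T cell genes were called in both directions. Of 23 genes of the T cell receptor and its coreceptors TE fell for 7 and rose for 1 (median -0.18, against -0.12 and a share that fell of 18.7% over all genes). Without NoBCAA replicate 2 or Control replicate 2, 4 fell. Lck, the kinase that starts receptor signalling, had ratios of -0.27, -0.21 and -0.27 in Control and -0.88, -0.95 and -0.85 in NoBCAA, a TE change of -0.65 (SE 0.09, adjusted p = 2.20e-06). Cd3e, a chain of the receptor complex, fell by 0.58 (SE 0.14). Of 18 tested CD8 effector genes TE fell for 5 and rose for 2, against 18.7% and 7.97% of all genes. The number that fell was 3 with RLE size factors, with DESeq2, when only the 12 libraries were fitted, and without any 1 NoBCAA lysate or Control replicate 3, and the number that rose was 1 without NoBCAA replicate 1, NoBCAA replicate 2 or Control replicate 3. The chemokine Ccl5 fell by 1.01 (SE 0.20, adjusted p = 0.000394), with ratios of -0.56, -0.68 and -0.73 in Control and -1.94, -1.63 and -1.44 in NoBCAA. Tnf rose by 0.48 (SE 0.13, adjusted p = 0.00636). Ifng, the interferon of CD8 effectors, had a TE change of 0.19 (SE 0.14, adjusted p = 0.358), which was above that without methionine by 0.84 (SE 0.14, adjusted p = 9.76e-05). For the granule protease Gzmb the TE change was -0.26 (SE 0.14, adjusted p = 0.181), or -0.25 with adjusted p = 0.0138 with the lysate as a replicate block. Tcf7, the transcription factor of naive and memory cells, fell in TE by 0.72 (SE 0.12, adjusted p = 2.71e-05), and Myc was not called (0.20, SE 0.16, adjusted p = 0.387).

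Other housekeeping groups moved in part, beside all genes tested, of which TE rose for 7.97% and fell for 18.7%. Of 37 proteasome subunits TE fell for 11 and rose for 2, with a median of -0.17, but fell for 6 with RLE size factors or without NoBCAA replicate 1 or 3, and for 5 without Control replicate 2. Psmd8, of the regulatory lid, fell by 0.83 (SE 0.12) and Psmd1, its scaffold in the base, rose by 0.63 (SE 0.12). Of 31 lysosome and autophagy genes TE fell for 11 and rose for none (median -0.22). The number that fell was 7 without NoBCAA replicate 1 or Control replicate 3 and with RLE size factors, and 6 when only the 12 libraries were fitted, where 2 rose. Tfeb, the transcription factor that drives lysosomal genes, fell by 0.81 (SE 0.25, adjusted p = 0.0157), a call lost without NoBCAA replicate 1, Control replicate 1 or Control replicate 3 (adjusted p up to 0.298) and when only the 12 libraries were fitted (adjusted p = 0.0787), and Atg5, needed to lipidate LC3, by 0.70 (SE 0.11). Among chaperones of the cytosol 5 of 18 were higher in TE and 1 lower, though 2 were higher without NoBCAA replicate 1, NoBCAA replicate 2 or Control replicate 3. Hsp90aa1 rose by 0.73 (SE 0.15, adjusted p = 0.000563) and Hsp90ab1 by 0.50 (SE 0.09).

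Metabolic genes outside the mitochondrion showed mixed TE, where 7.97% of all genes rose and 18.7% fell. In total RNA 15.7% of all genes rose and 12.9% fell. Total RNA of sterol synthesis genes fell for 20 of 24 and rose for none, while TE rose for 4 and fell for 3. None fell in TE with RLE size factors, and 1 fell without any 1 NoBCAA lysate or without Control replicate 3. Hmgcs1, an early enzyme of that pathway, changed by -1.86 (SE 0.09) in total RNA and rose in TE by 0.40 (SE 0.13), a call lost without NoBCAA replicate 1 or Control replicate 3 (adjusted p up to 0.0758). Of 22 glycolysis and HIF target genes TE rose for 6 and fell for 3. Pfkp, a phosphofructokinase, rose by 0.65 (SE 0.14), the glucose transporter gene Slc2a3 rose by 0.61 (SE 0.14), and Bnip3, a mitophagy receptor, fell by 0.95 (SE 0.14). Of 10 mRNAs encoded by mitochondrial DNA, which cytosolic ribosomes do not translate, 2 were called lower in the ratio, mt-Co3 among them (-1.10, SE 0.33, adjusted p = 0.0118), a share near that of all genes (18.7%). The mt-Co3 call was lost without Control replicate 3 (adjusted p = 0.0621), and 1 of the 10 was called with RLE size factors or without any 1 lysate but NoBCAA replicate 1.

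Genes of division went both ways, beside all genes tested, of which TE rose for 7.97% and fell for 18.7%. Of 34 cell cycle and DNA replication genes TE rose for 9 and fell for 9, and it rose for 5 without NoBCAA replicate 1. Mcm3, a subunit of the replicative helicase, had 274, 210 and 221 CPM of total RNA in Control and 214, 208 and 214 CPM in NoBCAA, and its polysome RNA went from 197, 148 and 164 CPM to 304, 273 and 264 CPM. TE rose by 0.87 (SE 0.16, adjusted p = 0.000174). Top2a, which untangles DNA, rose by 0.75 (SE 0.14) and Kif11, a spindle motor, by 0.70 (SE 0.14). Replication-dependent histones rose in total RNA for 49 of 52 and in polysome RNA for 41, against 15.7% and 21.8% of all genes. Their medians were 1.49 and 1.18. In polysome RNA the count was 21 and the median 0.44 without NoBCAA replicate 2, and the count was 16 and the median 1.29 when only the polysome libraries of these groups were fitted. Their TE fell for 2 and rose for none, but the median of -0.36 moved to -0.03 without NoBCAA replicate 1, -0.14 without Control replicate 3 and -0.80 without NoBCAA replicate 2. Of 317 genes named Zfp, mostly zinc finger repressors, TE rose for 57 and fell for 19 (median 0.15). The number that rose was 34 without NoBCAA replicate 1. Those that fell numbered 11 without that lysate, 9 without Control replicate 3 and 11 when only the 12 libraries were fitted. Zfp60 rose by 1.00 (SE 0.16, adjusted p = 1.96e-05).

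**Figure D4:**
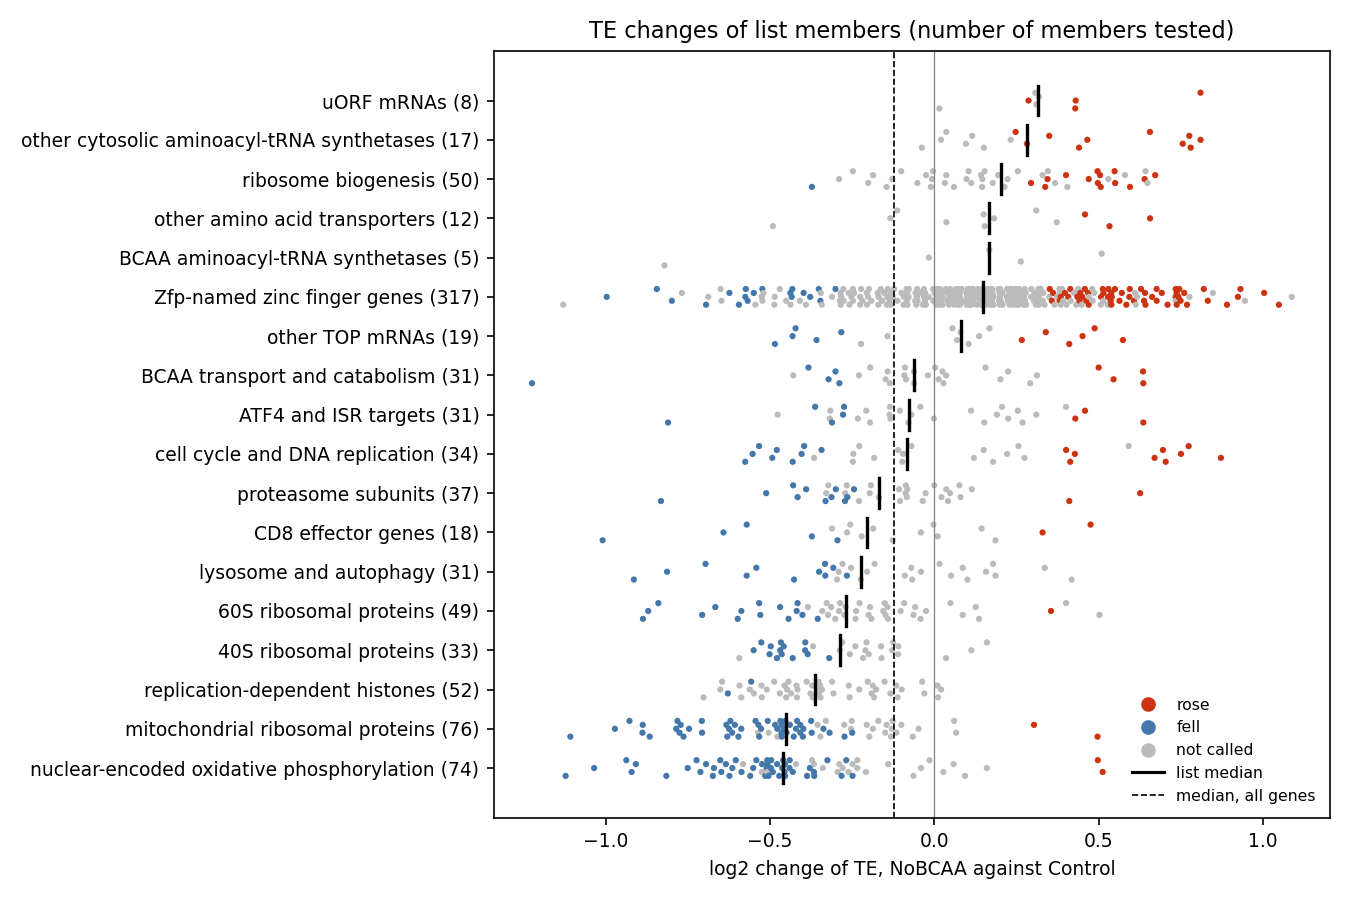
Log2 change of TE, NoBCAA against Control (horizontal axis), with 1 point per tested member of 18 gene lists, ordered by list median (black bar); red and blue points passed the test. The median of all genes (dashed) is at -0.12, with the mitochondrial lists lowest and the uORF list and cytosolic synthetases highest.

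The genes with the largest changes under the naming rule came from several functions. Among the 15 with the highest TE change were Rad50, of DNA break repair (0.90, SE 0.13), the WD repeat genes Wdr7 and Wdr35 (both 0.95), and Smarcal1, an annealing helicase (0.88, SE 0.12). Among the 15 with the lowest were Lrrfip2 (-1.22, SE 0.13), Chchd7 (-1.20, SE 0.18), Phf7 (-1.18, SE 0.14), Arl6ip4 (-1.12, SE 0.11) and Cwc15, a splicing factor (-1.10, SE 0.12). Arhgef26 had the lowest change of all under the rule (-1.46, SE 0.47, adjusted p = 0.0248), a call lost without NoBCAA replicate 2 or 3 or Control replicate 1. TE changes differed with gene size, a description made after the values were seen. Over 10445 protein-coding genes matched by symbol to RefSeq (GRCm38.p6), ordered by genomic span (introns included) and divided into 5 sets of 2089, the median TE change was -0.27 in the set with the shortest span and 0.01 in that with the longest. TE rose for 3.35% and fell for 29.1% of the shortest set, and rose for 12.7% and fell for 12.9% of the longest, and Spearman's rho between span and TE change was 0.245 over genes, which are not independent. Lengths of mature mRNAs were not used here.

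**Figure D5:**
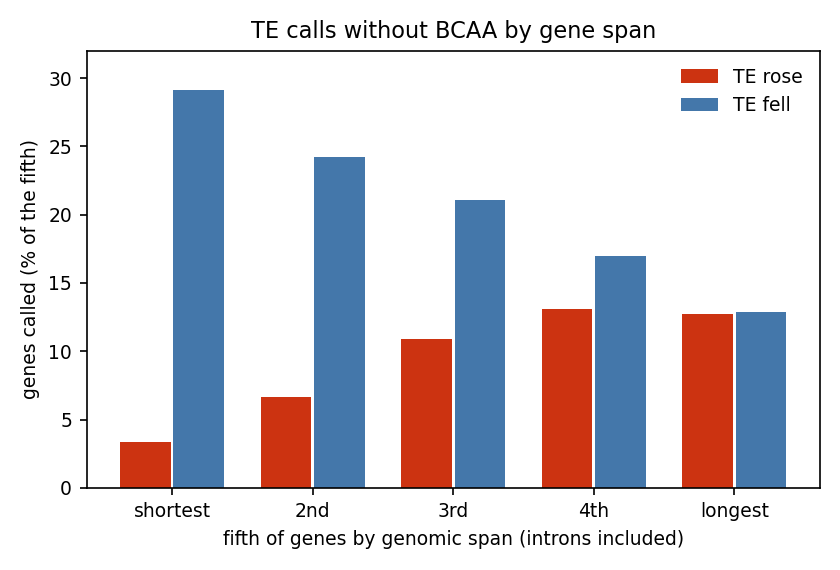
Percent of genes whose TE rose (red) or fell (blue) without BCAA (vertical axis), in 5 sets of 2089 genes ordered by genomic span (horizontal axis, shortest to longest). The share that fell goes from 29.1% to 12.9% and the share that rose from 3.35% to 12.7%.

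Beyond the groups above, the tests against the other deprivations gave few differing genes except for methionine. TE without BCAA was higher than without arginine for 66 genes and lower for 212. Only 23.7% of these were higher, and 48.6% with RLE size factors, 42.3% with DESeq2 and 52.0% when only the libraries compared were fitted. Leaving out any 1 of the 6 lysates left 21 to 63 higher and 52 to 104 lower, and the lysate as a replicate block gave 145 and 421. Against glutamine removal 53 were higher and 4 lower, or 93.0% higher, against 47.8% with RLE size factors and 56.2% with DESeq2. The replicate block gave 155 and 20, and leaving out a lysate left 2 to 26 higher and 2 lower, with the smallest count without NoGlutamine replicate 2. Against methionine removal 1273 were higher and 639 lower (66.6% higher, against 56.0% with DESeq2). With the replicate block 1551 were higher and 1411 lower (52.4% higher). Without NoMethionine replicate 1 there were 1443 and 1151 (55.6% higher), and without NoMethionine replicate 2 there were 838 and 197.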

How the data were processed

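The deposited table held raw whole-number counts per gene, not normalized by the authors. Per the submitters' processing notes, the build was GRCm39 and the tools included STAR, HTSeq, Trimmomatic and edgeR, with no versions or roles given. It covered 60 of 78 libraries in the labels; 18 monosome libraries were not analysed here. The 36 nutrient libraries were fitted together in R 4.3.3 with edgeR 4.0.16. They were total and polysome RNA of Control, NoBCAA, NoArginine, NoGlutamine, NoMethionine and NoGlucose. The fit used filterByExpr with a minimum count of 10, TMM scaling and robust quasi-likelihood F tests with 1 mean per fraction and medium. Benjamini-Hochberg adjustment ran over 13072 genes, with a threshold of 0.05. TE change is the polysome change minus the total RNA change. Each SE is the size of a log2 change over the square root of its F statistic, so it draws on the spread in all 36 libraries. TMM makes every change relative, so an overall loss of mRNA from polysomes would not show. Levels are TMM-scaled CPM (marker sums use plain totals), and per-lysate log2 ratios use a prior count of 2. The fit was tested on simulated counts. Labels do not say whether lysates came from separate cultures or animals, so p-values reflect the spread of these samples alone, which may be technical.

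Total and polysome RNA of 1 number come from 1 lysate, per the labels' protocols. Residuals of these pairs correlated at -0.03 to 0.20 over the 6 lysates. Libraries of different media were not paired by number (correlations of -0.12 to 0.10). Members and lists were chosen with earlier results of these data known. Some genes, Eprs1 and Slc3a2 among them, are in more than 1 list, so counts of different lists are not independent. Genes named are the 15 highest and 15 lowest TE changes among called genes with a symbol, a mean of at least 5 CPM and ratios that do not overlap, up to 4 called members per list, a set of anchors, and those marked as named after their values were seen. The text gives only some of the genes that the rule names. Alternatives were RLE size factors, no filter, a minimum count of 50, leaving out ribosomal, 7SK and mitochondrial entries, DESeq2 1.42.0, only the libraries compared, a replicate block, and each lysate left out. RefSeq tables gave starts and spans. The leucine, isoleucine and valine content of proteins was not analysed here.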

Additional observations from a re-analysis of the deposited data

Results flagged for a closer look

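Each value here is a tested difference between the TE change without BCAA and that under another deprivation, in log2 units of NoBCAA minus the other. Against arginine removal, 66 genes were higher and 212 lower. Bckdk differed by -0.74, Eef1a1 by 0.73, Eef2 by 0.41, Eef1g by 0.38, Eif4b by 0.44, Vim by 0.47 and Tpt1 by 0.54. The differences of Eef2, Eif4b, Vim and Tpt1 were lost when single lysates were left out, as given above. Against glutamine removal, 53 genes were higher and 4 lower, and Eef1a1 differed by 0.35. That Eef1a1 difference was lost with RLE size factors (adjusted p = 0.230) and when any single lysate of either medium was left out. Against methionine removal, 1273 genes were higher and 639 lower. There Atf4 differed by 0.38, Ddit3 by 0.49, Ifng by 0.84 and Eif1 by 0.58. Eprs1 differed by -0.46, Eef1a1 by -0.43, Eef2 by -0.49, Eef1g by -0.40 and Vim by -0.53. The Eprs1 difference was lost without NoBCAA replicate 3 (adjusted p = 0.110), NoMethionine replicate 2 (adjusted p = 0.0833) or NoMethionine replicate 3 (adjusted p = 0.0926).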

How the results depend on the processing

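No named gene whose TE change was called reversed under any alternative, and counts of calls for total and polysome RNA stayed within 1.5 times. With RLE size factors 90 genes were lower than without arginine, and 11 higher and 12 lower than without glutamine. Without ribosomal, 7SK and mitochondrial entries 7 were lower than without glutamine. DESeq2 gave 143 higher than without arginine, 39 lower than without glutamine and 1070 lower than without methionine. With only the libraries compared 84 were lower than without arginine, and 176 higher and 19 lower than without glutamine. With the lysate as a replicate block TE rose for 1452 and fell for 2816 genes. The block gave 145 higher and 421 lower against arginine, 155 and 20 against glutamine, and 1411 lower against methionine. For total and polysome RNA the block by number gave 4208 and 7726 calls, where the fit gave 3733 and 7414. With a lysate left out TE rose for 674 to 961 and fell for 1592 to 2331 genes; differences were 21 to 63 higher and 52 to 104 lower (arginine), 2 to 26 and 2 (glutamine), and 838 to 1443 and 197 to 1151 (methionine). With 3 lysates a group and low counts, an uncalled gene is not shown to be unchanged. A shift common to all mRNAs cannot be measured on this scale.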
